A study of Mus musculus with 6 samples.

Results

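The cells described here were macrophages of the adult mouse sciatic nerve with very high levels of Retnla, the gene of the secreted protein RELMα. Members were 332 cell barcodes of the 3 libraries made at postnatal day 60 (P60). Each had 500 to 5000 detected genes and, in unique molecular identifiers (UMIs, which count captured RNA molecules), at least 5 for C1qa and C1qb together, at least 1 for Ptprc, Cd68 and Csf1r together, at least 20 for Retnla, fewer than 10 for Dcn, and 0 for Sox10 and for Pecam1. They were 86, 117 and 129 of the 218, 262 and 359 macrophages that passed the same conditions with any Retnla count in replicates 1, 2 and 3, or 332 of 839. The 3 P60 libraries held 12602 cells with 500 to 5000 detected genes, and the whole series held 24337. Retnla, C1qa, C1qb, Ptprc, Cd68, Csf1r, Dcn, Sox10 and Pecam1 chose the cells, so their levels are given as a description. Their counterparts were 473 P60 macrophages with fewer than 5 Retnla UMIs (122, 133 and 218), called Retnla-low below, and 765 macrophages of the 3 P1 libraries (242, 278 and 245) chosen by the same conditions without the one on Retnla. The remaining 34 P60 macrophages had 5 to 19 Retnla UMIs.

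The study profiled single cells of the sciatic nerve at P1 and P60 by the 10x Chromium 3' method, with 3 biological replicates at each age. All mice were P0Cre -/+: ReYFP Tg/+: βAct-DsRed Tg/+ on the C57bl/6J background, so no group differed in genotype or treatment. In these mice the P0Cre transgene switches on eYFP in Schwann cells, and a β-actin promoter drives DsRed broadly. Nerves were minced and digested with trypsin, collagenase and hyaluronidase, DsRed-positive cells were sorted, and at P1 a portion of the DsRed and eYFP double-positive Schwann cells was left out of the sort. Mice were not perfused, so blood cells of the nerve's vessels could enter the suspension, and cells with little DsRed could be lost.

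Resident macrophages of peripheral nerve are phagocytes that clear debris, sample antigen and can change state after injury. Those in the collagen-rich epineurium around the nerve are known to carry scavenger and lectin receptors, while those between the axons in the endoneurium share part of the gene program of brain microglia. RELMα is a small secreted protein that interleukin 4 and interleukin 13 induce through the transcription factor STAT6 in so-called alternatively activated macrophages. The nerves were dissociated, so where in the nerve a cell had lain could not be checked, and "epineurial" is not used for these cells.

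Retnla lies on chromosome 16 of the GRCm38 build, at chr16:48842551-48844461 on the plus strand. The lectin genes that marked the same cells lie close together on chromosome 8, with Cd209a at chr8:3743397-3748984, Cd209d at chr8:3871824-3878555, Cd209b at chr8:3917655-3926844 and Cd209f at chr8:4102787-4105835, all on the minus strand, and Cd209g at chr8:4134098-4137707 on the plus strand. The genes of this family resemble each other in sequence and reads could be divided between them by the counting, so the level of a single Cd209 gene is uncertain. The promoters below, from RefSeq and GRCm38.p6, are those of the gene that defines the cells, of a lectin gene of the cluster, and of Ear2, the gene with the steepest difference from Retnla-low cells that was spread over more than a handful of cells. Each is written 5′ to 3′ on the gene's own strand and stops before the annotated start of the gene. Capitals mark matches to the letters that STAT6 recognises (TTC and GAA with any 4 bases between them, the same on both strands) or to TTGCNNAA on either strand, a loose form of the motif of C/EBP factors.
Retnla, chr16:48842359-48842550, plus strand: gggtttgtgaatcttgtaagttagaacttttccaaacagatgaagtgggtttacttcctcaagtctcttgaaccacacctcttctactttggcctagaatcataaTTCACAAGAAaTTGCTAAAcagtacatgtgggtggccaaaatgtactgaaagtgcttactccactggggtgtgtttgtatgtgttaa
Cd209d, chr8:3878556-3878749, minus strand: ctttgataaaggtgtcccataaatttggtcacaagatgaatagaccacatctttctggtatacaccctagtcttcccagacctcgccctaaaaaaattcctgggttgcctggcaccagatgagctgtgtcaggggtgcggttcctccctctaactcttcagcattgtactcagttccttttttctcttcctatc
Ear2, chr14:44102404-44102653, plus strand: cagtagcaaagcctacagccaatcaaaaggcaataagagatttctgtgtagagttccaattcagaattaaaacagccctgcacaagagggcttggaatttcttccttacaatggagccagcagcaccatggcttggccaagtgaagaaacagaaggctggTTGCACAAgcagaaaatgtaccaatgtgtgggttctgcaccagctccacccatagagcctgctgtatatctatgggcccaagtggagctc

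The Retnla promoter held the STAT6 letters as TTCACAAGAA, followed after a single base by TTGCTAAA. Neither motif occurred in the printed Cd209d sequence, and the Ear2 promoter held TTGCACAA. Over the 250 bases before the RefSeq start, the STAT6 letters were in 5.85% of the 32851 mouse promoters in the table, in 4.76% of the promoters of genes tested below and in 5.84% of the promoters of genes called higher in the Retnla-high cells. For genes called lower the STAT6 share was 6.36%, above that of the genes called higher. The C/EBP letters were in 9.56% of all promoters, in 8.05% of those of the genes tested and in 10.6% of those of the genes called higher. For genes called lower the C/EBP share was 8.29%. These matches describe the sequence only, and the shares were not tested.

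The 6 libraries held 3435 to 4586 cells and 20203440 to 30334608 UMIs each. P60 replicate 3 stood apart from the other P60 libraries, with 16.2% of its cells above 10% mitochondrial UMIs against 2.97% and 4.84% in replicates 1 and 2, and a Pearson correlation of its summed log2 levels with them of 0.991 against 0.998 between the other pair. Results are therefore given per library. Pairs of libraries shared 13 to 32 cell barcodes, and no shared barcode was a Retnla-high cell in both libraries. The Retnla-high cells had a median of 4597, 3781 and 3435 UMIs in replicates 1, 2 and 3, against 3365, 3154 and 3865 in the Retnla-low cells and 7425, 6552 and 7526 in the P1 macrophages. Their median share of mitochondrial UMIs was 2.56%, 2.63% and 2.93%, against 2.17%, 2.48% and 2.84% in the Retnla-low cells.

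Retnla was close to all-or-none among P60 macrophages. A Retnla-high cell held a median of 187, 144 and 97 Retnla UMIs in replicates 1, 2 and 3, and single cells ranged from 20 to 881. Together these cells held 60.2%, 55.7% and 65.7% of all Retnla UMIs of their libraries, although they were only 2.50%, 2.55% and 2.82% of the cells. Few cells sat at the threshold. The 7 cells with 20 to 24 UMIs had 5024 to 9559 Retnla UMIs per 1000000 UMIs (CPM), and the 8 cells with 15 to 19 UMIs had 2851 to 8720. The choice of 20 UMIs therefore placed a few cells of like level on either side.

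**Figure D1:**
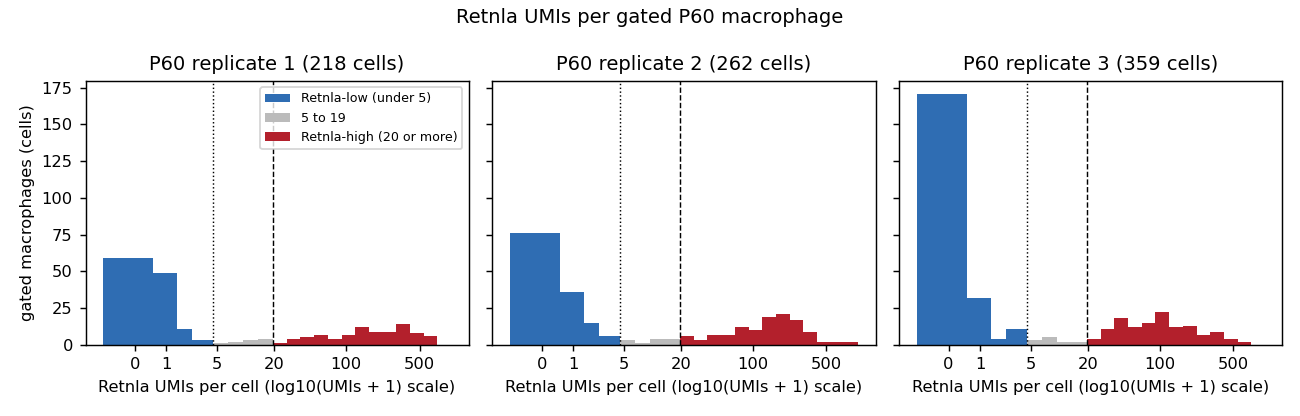
Retnla UMIs per cell, on a log10 axis of UMIs plus 1, for the gated macrophages of each P60 library, with the dotted line at 5 and the dashed line at 20 UMIs. Most cells lie either below 5 or above 20 UMIs in each library, and 34 cells of 839 lie between the lines.

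Retnla-high cells made up 39.4% of the gated P60 macrophages in replicate 1 (95% exact binomial interval 32.9% to 46.3%), 44.7% in replicate 2 (38.5% to 50.9%) and 35.9% in replicate 3 (31.0% to 41.1%), or 40.0% ± 4.39 (SD, n = 3). These intervals and all others given here cover counting error only. At P1, 0 of the 765 gated macrophages held a Retnla UMI, which allows up to 0.392% of cells with a Retnla UMI (3 counts of the total).

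The Retnla of Retnla-low cells was read against that of cells chosen by a fibroblast or an endothelial gene. In cells with at least 10 UMIs of the fibroblast gene Dcn, 53.7%, 42.4% and 18.5% held a Retnla UMI in replicates 1, 2 and 3, at a median depth of 5785, 5289 and 4018 UMIs. In the Retnla-low cells the shares were 51.6%, 42.9% and 21.6%, at a median depth of 3365, 3154 and 3865 UMIs. Cells with a Pecam1 UMI but no C1q or Dcn UMI, which were endothelial by that gene, held a Retnla UMI in 37.7%, 25.7% and 16.4% at 3713, 3381 and 3243 UMIs. The corresponding levels were 179, 143 and 64.3 CPM in the Dcn cells, 98.1, 78.3 and 90.7 CPM in the Pecam1 cells and 180, 194 and 95.9 CPM in the Retnla-low cells, so the Retnla-low cells lay above both in replicates 2 and 3 and about level with the Dcn cells in replicate 1. Against this, the Retnla-high cells held 45714, 42734 and 36914 CPM, far above all of these. Some Dcn cells were rich in Retnla, with up to 240, 322 and 149 UMIs, and a Pecam1 cell of replicate 3 held 56. Such cells raise the levels they are counted in, whereas the rule held Retnla-low cells to at most 4 UMIs. The difference between these groups was not tested.

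The marker genes given for these cells went with the label. Cd209d, a C-type lectin gene, stood at 478, 635 and 607 CPM in the Retnla-high cells of replicates 1, 2 and 3, and at 68.8, 77.6 and 121 CPM in the Retnla-low cells. Cd209g, its neighbour in the cluster, stood at 530, 518 and 398 CPM against 37.8, 41.1 and 56.4 CPM. Both were above the Retnla-low level in every library by several fold. When each cell was thinned to 1500 UMIs, Cd209d was found in 37.2%, 43.6% and 38.3% of Retnla-high cells, in 4.10%, 5.26% and 7.94% of Retnla-low cells and in 0.109%, 0.239% and 0.137% of cells with at least 10 Dcn UMIs. Without thinning, which left out 1 Retnla-high and 4 Retnla-low cells of replicate 3, the shares were 59.3%, 53.8% and 51.2% of Retnla-high and 4.10%, 6.77% and 12.4% of Retnla-low cells. Clec10a, a receptor for galactose-type sugars, was also higher in every library, at 681, 688 and 859 CPM against 244, 251 and 287 CPM.

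Mrc1, the mannose receptor, separated the groups much less, with 929, 920 and 1215 CPM against 688, 717 and 968 CPM, and the ranges of the groups overlapped. Genes that chose the cells as macrophages were present in both groups. C1qa, a subunit of complement component C1q, stood at 7293, 7104 and 4063 CPM in the Retnla-high cells and at 7018, 7307 and 4586 CPM in the Retnla-low cells. Csf1r, the receptor that macrophages need for survival, stood at 920, 880 and 978 CPM against 1246, 1136 and 1120 CPM, below the Retnla-low cells in every library.

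**Figure D2:**
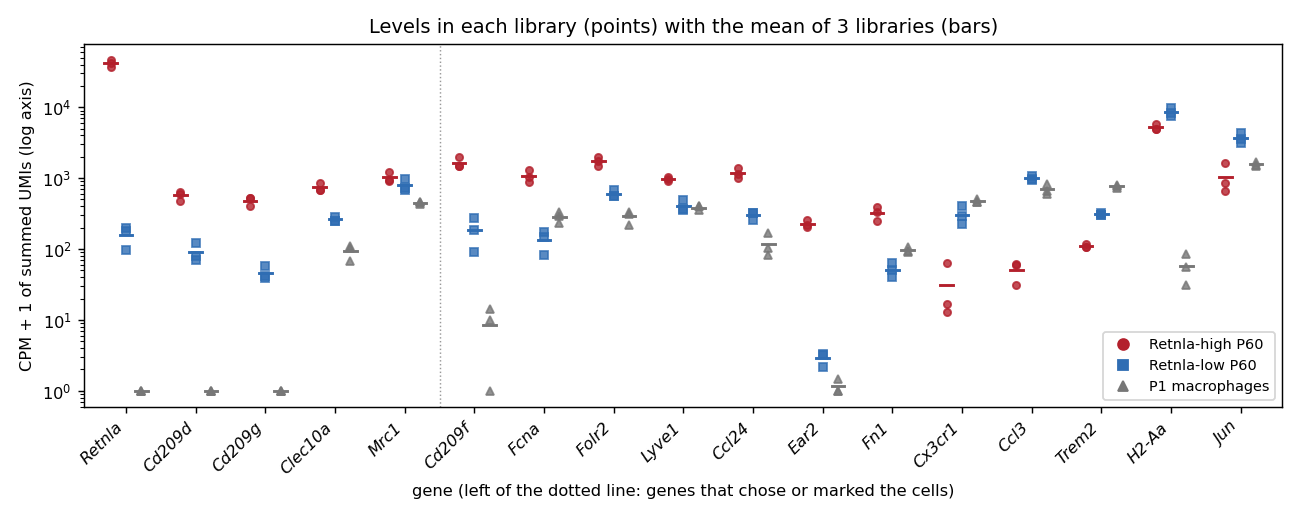
Levels of 17 genes in CPM plus 1 on a log axis, in Retnla-high P60, Retnla-low P60 and P1 macrophages; points are libraries and bars are group means (n = 3). The Cd209 genes, Fcna and Ccl24 lie higher in all 3 Retnla-high libraries, and Cx3cr1, Ccl3 and Jun lie higher in all 3 Retnla-low libraries.

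Within the Retnla-high cells Cd209d was not ordered alike by the level of Retnla in every library. Cells with 20 to 49, 50 to 99 and at least 100 Retnla UMIs had 846, 490 and 436 CPM of Cd209d in replicate 1 and 355, 596 and 685 CPM in replicate 3, which are opposite orders. Mrc1 was lowest at the highest step in each library, at 833, 844 and 1053 CPM. Cx3cr1, the fractalkine receptor of microglia-like macrophages, was lower at each further step in each library, from 26.4 to 14.3 CPM in replicate 1, from 63.7 to 2.74 CPM in replicate 2 and from 241 to 13.6 CPM in replicate 3. The step of 20 to 49 UMIs held only 10, 16 and 33 cells.

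The Retnla-high cells were then compared with the Retnla-low macrophages of the same libraries by summing UMIs per library and group, with the library as a block. Expression differed across a wide range of genes. Of 7351 genes tested, none of them used to choose the cells or given as a marker, 556 were higher (7.56%) and 530 lower (7.21%) in the Retnla-high cells at an adjusted p below 0.05 (edgeR quasi-likelihood test, Benjamini-Hochberg adjustment). With the DESeq2 Wald test 325 of the genes were called, and without the library block 393, all of them among the 1086. The 3 libraries of each group did not overlap, with the Retnla-high cells higher, for 904 of the genes tested (12.3%), and with them lower for 860 (11.7%). The replicates are those the labels name. With the library as a block, the p-values set the difference between the groups against its spread over these libraries. The test estimates that spread partly from all genes together. A small p-value therefore does not show that the gene itself differed evenly over the 3 libraries or over the cells.

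Among the genes with the largest increases, Ear2, which encodes an eosinophil-type ribonuclease, stood at 252, 214 and 204 CPM in the Retnla-high cells and at 2.22, 2.28 and 1.20 CPM in the Retnla-low cells. With only 3 UMIs in the Retnla-low cells the ratio was 128 (95% exact interval 43.4 to 624). The UMIs came from 14, 18 and 15 cells of replicates 1, 2 and 3, so most Retnla-high cells had none. Mucl1, a small mucin-like gene, had the largest fitted difference but came from even fewer cells. It stood at 329, 32.4 and 129 CPM against 0 in all 3 Retnla-low sums, at least 90.7-fold higher, and 4, 3 and 1 cells held its UMIs, with 97.9%, 75% and 100% of them in a single cell of each library.

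Cd2 and Ms4a8a also had large increases and were likewise found in a minority of the cells. Cd2 UMIs came from 15, 22 and 21 Retnla-high cells of replicates 1, 2 and 3, and Ms4a8a UMIs from 32, 34 and 33. Cd2, an adhesion molecule better known from T cells, stood at 58.6, 91.0 and 58.4 CPM against 2.22, 4.56 and 1.20 CPM (log2 change 4.69 ± 0.44 SE, adjusted p = 1.8e-09). Markers of T and natural killer cells did not come with it, since their summed level was 4.51, 4.04 and 4.17 CPM, with 8 to 9 of the 10 genes at 0 in each library. Ms4a8a, a tetraspan membrane protein gene, stood at 94.7, 93.0 and 85.5 CPM against 0, 4.56 and 15.6 CPM (3.39 ± 0.38, and 5.21 without replicate 3). The groups did not overlap for either gene. Cd2 was higher still, at 134, 236 and 131 CPM, in Retnla-rich P60 cells with too few C1q UMIs to be members, which are described at the end.

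The remaining genes that led by fold lay at low levels. They were Ryr1 (log2 change 5.01), Gstp2 (4.80), Ltb4r1, a leukotriene B4 receptor (3.80), Cd24a (3.63), St3gal5, a ganglioside synthase (3.43), Serpinb1a, a protease inhibitor (3.26), Rem1 (3.23), Aldh1a2, a retinoic acid synthesising enzyme (3.16), and Mamdc2 (3.02). Each was at most 84.9 CPM in any Retnla-high library. Serpinb1a stood at 56.3 CPM over the other P60 cells, which was as high as in the Retnla-high cells (49.6, 58.6 and 27.1 CPM), and Rem1, Cd24a and Mamdc2 stood there at 20.6, 21.2 and 16.2 CPM. Cd24a came from only 5, 4 and 2 cells and changed by 6.70 without replicate 3, and it was not called against comparison cells without the other conditions of the gate (1.72, adjusted p = 0.0566). Rem1 changed by 7.25 without replicate 2 and by 2.12 without replicate 3, and Serpinb1a was not called after thinning (2.02, adjusted p = 0.0745).

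Genes known from perivascular and connective-tissue macrophages were higher as a group in the Retnla-high cells. Of the 23 tested genes of this list, 17 were higher and 0 lower, with a median log2 change of 0.97, against a median of 0.003 over all genes tested. With the DESeq2 test the count was 12 of 23 and without the library block 13. Over all genes tested, 7.56% were higher and 7.21% lower, and the list counts below stand beside these shares. This list and the others were chosen with earlier results of these data known, so their counts are not independent of the data. A few members of the lists are named below beyond the naming rule because of their known roles, after their values had been seen.

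Fcna, the gene of ficolin A, which binds microbial sugars and starts the lectin pathway of complement, stood at 1314, 1023 and 886 CPM against 82.2, 173 and 149 CPM (log2 change 2.95 ± 0.17, adjusted p = 9.7e-14). Fxyd2, a regulatory subunit of the sodium pump, stood at 1158, 1116 and 782 CPM against 138, 178 and 177 CPM (2.57 ± 0.15). For both genes the lowest Retnla-high library lay several fold above the highest Retnla-low library.

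Folr2, a folate receptor used as a marker of resident tissue macrophages, stood at 1979, 1773 and 1501 CPM against 551, 687 and 553 CPM (1.54 ± 0.11). Lyve1, a hyaluronan receptor, stood at 1039, 920 and 976 CPM against 358, 363 and 494 CPM (1.26 ± 0.12). These groups did not overlap either, but the Retnla-low cells carried both genes at a sizeable level. Cd163, the scavenger receptor for haemoglobin, did not pass the test (0.21 ± 0.12, adjusted p = 0.28), and its groups overlapped. Gfra2, a receptor for neurturin, rose from 13.3, 16.0 and 14.4 CPM to 47.3, 76.8 and 129 CPM (2.60 ± 0.30).

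The given markers Cd209d, Cd209g, Clec10a and Mrc1, which are lectin genes too, were not tested. Each stood above the Retnla-low level of its library. The other lectin and scavenger receptors did not move one way. Of 21 tested, 7 were higher and 8 lower, with a median of 0.01. Those higher were Cd209a, Cd209b, Cd209f, Fcna, Lyve1, Timd4, a receptor for phosphatidylserine on dying cells, and Cd36, a scavenger receptor for lipids. Cd209f, which had the largest change among them, stood at 1995, 1502 and 1474 CPM against 91.1, 187 and 270 CPM (log2 change 3.15 ± 0.19, adjusted p = 2.3e-13), and Cd209b at 257, 309 and 229 CPM against 33.3, 103 and 28.8 CPM (2.37 ± 0.21), with no overlap for either. Among those lower were Clec7a and Clec12a, Msr1, Stab1, Axl and Mgl2. Mgl2 lies beside Clec10a on chromosome 11, at chr11:70130329-70137550, and encodes a related lectin, yet it stood at 1170, 963 and 942 CPM in the Retnla-high cells against 1699, 1563 and 1345 CPM in the Retnla-low cells (-0.59 ± 0.10, adjusted p = 4.4e-05).

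Of 24 genes linked to alternative activation, only 9 had enough counts to be tested, and 4 were higher and 4 lower. Those higher were Ear2, Ccl24, Fn1 and Irf4, and those lower were Il4ra, Il13ra1, Egr2 and Mgl2. Ccl24, an eosinophil-attracting chemokine, stood at 998, 1391 and 1159 CPM against 255, 326 and 317 CPM (1.96 ± 0.11, adjusted p = 8.9e-14). Fn1, the gene of fibronectin, stood at 327, 396 and 248 CPM against 62.2, 38.8 and 50.4 CPM (2.61 ± 0.19), below its mean of 914 CPM over the other P60 cells. Il4ra, the receptor chain that interleukin 4 and interleukin 13 share, changed by -1.18, and Il13ra1 by -1.50. Arg1 and Chil3, which are widely used marks of this state, were too low to test.

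Complement genes included some of the steadier increases, with 4 of 13 tested higher and 2 lower. Cfp, the gene of properdin, which stabilises the alternative pathway convertase, stood at 1012, 973 and 1038 CPM against 222, 326 and 255 CPM (1.91 ± 0.13, adjusted p = 1e-12). C4b stood at 216, 245 and 298 CPM against 40.0, 75.3 and 44.4 CPM (2.30 ± 0.19). Cfb, the factor B gene, was also higher (3.02 ± 0.61) at no more than 35.4 CPM, and the receptor gene Itgam was higher by 1.13 ± 0.17. The anaphylatoxin receptors C3ar1 and C5ar1 were the complement genes that were lower.

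Chemokine genes split between the groups. Of 21 chemokine and chemokine receptor genes tested, 7 were higher and 9 lower, with a median of -0.43. Ccl24, Ccl8, Ccl6, Ccl9, Pf4, Ccr1 and Ccr2 were higher. Ccl6 reached 7415, 6570 and 4340 CPM against 1823, 2061 and 1423 CPM (1.76). Ccl3 and Ccl4, which attract leukocytes and are made quickly on stimulation, were lower, with Ccl3 at 58.6, 30.3 and 60.5 CPM against 1077, 931 and 970 CPM (-4.33 ± 0.16, adjusted p = 6.4e-18) and Ccl4 at 137, 32.4 and 104 CPM against 1444, 815 and 1041 CPM (-3.65 ± 0.17). Ccl12 fell by 4.03 ± 0.24 on the log2 scale. The Ccl3, Ccl4 and Ccl12 levels of the groups did not overlap, and every Retnla-low library was at least several fold higher.

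Genes shared with microglia were lower in the Retnla-high cells. Of 17 tested, 10 were lower and 1, Tgfbi, was higher, with a median of -0.82. Lilra5, an immunoglobulin-like receptor, stood at 4.51, 6.07 and 4.17 CPM against 220, 146 and 134 CPM (-5.00 ± 0.32). Cx3cr1 stood at 15.8, 12.1 and 62.5 CPM against 293, 221 and 402 CPM (-3.37 ± 0.22, adjusted p = 1e-12). At 1500 UMIs per cell Cx3cr1 was found in 4.65%, 1.71% and 5.47% of Retnla-high cells and in 35.2%, 22.6% and 36.9% of Retnla-low cells (without thinning 6.98%, 4.27% and 11.6% against 54.1%, 39.1% and 59.2%), and in at most 0.159% of cells with at least 10 Dcn UMIs. Trem2, a lipid-sensing receptor, stood at 117, 107 and 104 CPM against 298, 324 and 297 CPM (-1.49 ± 0.15). The count of lower genes was 6 with the DESeq2 test and 7 without the library block.

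Other genes with large decreases included Fscn1 (-4.95), an actin-bundling protein gene, Basp1 (-4.51), Kcnip3 (-4.46), Parvg (-3.80), Lpcat2 (-3.60), Dusp2 (-3.39), Cd72 (-3.33), Rnf180 (-3.32) and Cd79b (-3.27). Fcgr4, a receptor for IgG, stood at 6.76, 2.02 and 2.08 CPM against 97.7, 63.9 and 34.8 CPM (-4.10 ± 0.43). Cd72 and Cd79b are also known from B cells, and the summed B cell markers, Cd79b included, were 433, 384 and 425 CPM in the Retnla-high cells and 620, 557 and 348 CPM in the Retnla-low cells. Nearly all of this was Ighm (428, 378 and 419 CPM against 560, 493 and 302 CPM), while Cd79a, Ms4a1 and Igkc had 0 UMIs in both groups.

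Immediate early and stress genes, which respond to enzymatic dissociation at warm temperature as well as to signals in the tissue, were the list with the most decreases. Of 22 tested, 16 were lower and 1, Klf4, was higher, with a median of -0.92. Jun, a subunit of the AP-1 transcription factor, stood at 847, 667 and 1636 CPM against 3602, 3183 and 4323 CPM (-1.91 ± 0.11, adjusted p = 9.7e-14). Fos stood at 1821, 1830 and 3542 CPM against 6458, 5098 and 7518 CPM (-1.47). Both genes were higher in replicate 3 than in the other replicates in either group, and lower in the Retnla-high cells in every library. Btg2 changed by -1.54 ± 0.10 and Hspa1a, a heat shock gene with a near-identical neighbouring copy that makes its count uncertain, by -1.47 ± 0.12. Without the library block 6 genes of the list were lower and 0 higher, and with the DESeq2 test 14 were lower.

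Inflammatory genes went the same way more often than the other. Of 16 tested, 8 were lower and 2, Il6 and Irf7, higher, with a median of -0.53. Il1b stood at 31.6, 101 and 60.5 CPM against 311, 390 and 393 CPM (-2.53 ± 0.19). Tnf stood at 20.3, 22.2 and 18.8 CPM against 91.1, 103 and 119 CPM (-2.35 ± 0.26), and the costimulatory gene Cd86 changed by -1.12 ± 0.16. For none of these did the groups overlap. Il6 was low throughout, at 20.3, 18.2 and 45.9 CPM against 4.44, 0 and 12 CPM (2.21 ± 0.48), and was not called without the library block (adjusted p = 0.0774).

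MHC class II genes, which present antigen to helper T cells, were lower but still abundant. Of 11 tested, 7 were lower and 1, H2-DMb2, was higher, with a median of -0.66. H2-Aa stood at 5736, 5013 and 4919 CPM in the Retnla-high cells against 9803, 8388 and 7527 CPM (-0.72 ± 0.07, adjusted p = 8.9e-09), and Cd74, the invariant chain, changed by -0.82. H2-DMb2 stood at 31.6, 30.3 and 25 CPM against 2.22, 2.28 and 7.19 CPM (2.59 ± 0.51), and it neighbours its near-identical copy H2-DMb1, so its count is uncertain. H2-DMa, which encodes the partner chain, did not pass the test (-0.22 ± 0.11, adjusted p = 0.23).

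Broader macrophage genes were lower more often than higher. Of 12 identity genes outside those that chose the cells, 8 were lower and 2, Itgam among them, higher. Cd14, a coreceptor for bacterial lipopolysaccharide, stood at 433, 404 and 494 CPM against 1450, 1292 and 1506 CPM (-1.68 ± 0.11), and Fcgr1, the high-affinity IgG receptor, changed by -1.47 ± 0.22. Of 25 transcription factors 7 were higher and 5 lower. Irf8, a factor of the myeloid lineage, stood at 110, 115 and 62.5 CPM against 315, 274 and 258 CPM (-1.58 ± 0.17). The related repressors Bhlhe40 and Bhlhe41 moved in opposite directions, by 1.99 ± 0.51 and -2.54 ± 0.67, both at levels of at most 28.3 CPM. Bhlhe40 was not called without replicate 2 (1.58, adjusted p = 0.0776) and changed by 3.12 without replicate 3, nor was Bhlhe41 without replicate 3 (-1.99, adjusted p = 0.0706).

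Lysosome and lipid genes split evenly, with 7 higher and 7 lower of 28 and a median of 0.05. Lgals3, Ctsl, Lpl, Abca1, Ctsd, Grn and Psap were higher. Apoe, the main lipid carrier made by macrophages, was lower, at 15130, 14990 and 12411 CPM against 31381, 32139 and 28274 CPM (-1.12), and the tetraspanin gene Cd9 changed by -1.23 ± 0.20. Of 12 iron-handling genes 3 were higher and 2 lower. Tfrc, the transferrin receptor, stood at 36.1, 34.4 and 75 CPM against 8.88, 9.13 and 27.6 CPM (1.61 ± 0.32), and Hmox1, which breaks down haem, at 446, 548 and 863 CPM against 284, 256 and 661 CPM (0.67 ± 0.13), while the transferrin gene Trf changed by -0.69 ± 0.10 and the metal transporter gene Slc11a1 by -0.74 ± 0.17. Tfrc and Slc11a1 were not called with the DESeq2 test (adjusted p = 0.0649 and 0.173).

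Among 13 growth factor and protease-related genes 4 were higher and 1 lower. Timp2, a metalloproteinase inhibitor, stood at 820, 811 and 973 CPM against 326, 429 and 520 CPM (1.03 ± 0.12). Igf1, a growth factor, stood at 268, 360 and 315 CPM against 144, 164 and 168 CPM (0.97 ± 0.14). The groups overlapped for neither. Pdgfc was higher at low level (1.81 ± 0.41) and was not called without replicate 3 (1.28, adjusted p = 0.0784), and Osm, the oncostatin M gene, was lower (-1.66 ± 0.48) and was not called without replicate 2 (-1.40, adjusted p = 0.093).

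**Figure D3:**
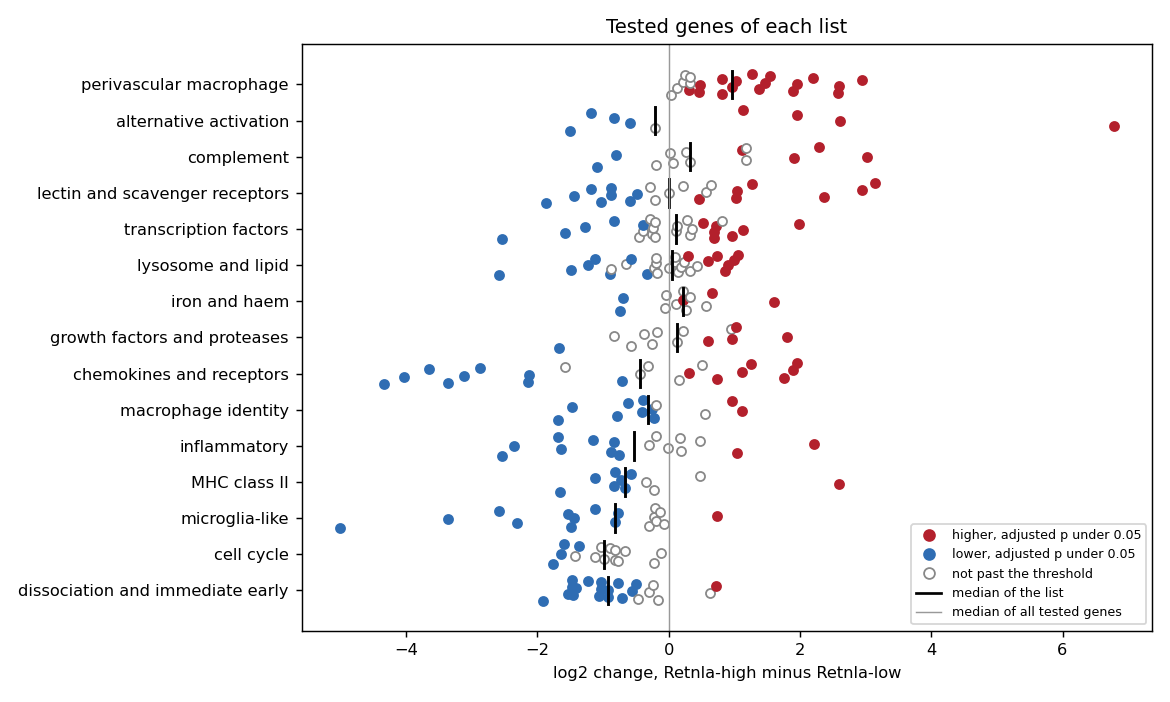
Log2 change of each tested gene, Retnla-high minus Retnla-low P60 macrophages, grouped by 15 gene lists, with the median of each list marked. Perivascular genes sit mostly above 0, with 17 of 23 called higher, and the microglia-like and immediate early lists sit mostly below, with 10 of 17 and 16 of 22 called lower.

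Markers of other cell types were measured beside these results. The summed level of fibroblast markers was 2058, 1745 and 1105 CPM in the Retnla-high cells and 1763, 1611 and 1004 CPM in the Retnla-low cells, against 25643 to 36032 CPM in the other P60 cells. Monocyte markers summed to 534, 599 and 463 CPM against 360, 292 and 241 CPM, and the 3 that could be tested, Ccr2, Itga4 and Plac8, were all called higher. Ccr2, the receptor that draws monocytes from blood, stood at 449, 449 and 346 CPM against 300, 251 and 193 CPM (0.74 ± 0.13). Dendritic cell markers summed to 119, 184 and 183 CPM against 180, 155 and 210 CPM, with overlapping groups. Of the 3 dendritic cell markers that could be tested, Cd209a was called higher and Fscn1 and Siglech lower. Schwann cell markers summed to 410, 109 and 62.5 CPM against 68.8, 203 and 77.9 CPM, with only replicate 1 above the Retnla-low range. The part of these cells in the results was not tested.

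The Retnla-high cells were not uniform in MHC class II. The UMIs of H2-Aa, H2-Ab1, H2-Eb1 and Cd74 were added in each cell after thinning to 1500 UMIs. The median of this sum was 39.5, 27.0 and 16.0 in the Retnla-high cells of replicates 1, 2 and 3 against 97.5, 95 and 73.0 in the Retnla-low cells. A sum of at least 20 was found in 58.1%, 53.0% and 44.5% of Retnla-high cells and in 86.9%, 78.9% and 76.6% of Retnla-low cells. The value of 20 splits a range and was chosen after the data had been seen, and 6, 10 and 19 Retnla-high cells lay within 5 UMIs of it. What follows describes the 50, 62 and 57 Retnla-high cells above it (MHC class II-high) and the 36, 55 and 71 below it (MHC class II-low) with no test.

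Several receptors of resident macrophages stood higher in the MHC class II-low cells, though the other side carried them too. A UMI of Lyve1 or Cd163 was found in 97.2%, 100% and 94.4% of MHC class II-low and in 62.0%, 58.1% and 59.6% of MHC class II-high cells. Lyve1 stood at 1629, 1599 and 1523 CPM in them against 639, 478 and 435 CPM in the MHC class II-high cells. Fcna stood at 2087, 1733 and 1423 CPM against 790, 561 and 351 CPM. Timd4 stood at 251, 190 and 188 CPM against 45.4, 66.8 and 41.8 CPM. The sides did not overlap for any of these. Cd209d, Folr2, Cd163 and Mrc1 leaned the same way in every library, for example Mrc1 with 1211, 1394 and 1703 CPM against 737, 611 and 727 CPM.

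The MHC class II-high cells carried other genes. Ear2 stood at 401, 354 and 405 CPM in them against 33.5, 0 and 4.18 CPM in the MHC class II-low cells. Lyz1, a lysozyme gene, stood at 1910, 2040 and 2457 CPM against 273, 76.9 and 226 CPM. Over all Retnla-high cells, a single cell held 42.6%, 16.5% and 22.6% of the Lyz1 UMIs of replicates 1, 2 and 3. Ccr2 stood at 643, 731 and 619 CPM against 162, 15.4 and 75.3 CPM. The monocyte receptor gene and the ribonuclease gene were thus many fold lower on the side poor in MHC class II. Fn1 leaned the same way, with 374, 628 and 456 CPM against 257, 41.0 and 41.8 CPM, and Retnla itself stood at 48670, 47377 and 42290 CPM against 41353, 35607 and 31534 CPM. Cfp was nearly alike on both sides, with 1059, 1039 and 1108 CPM against 943, 871 and 975 CPM.

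**Figure D4:**
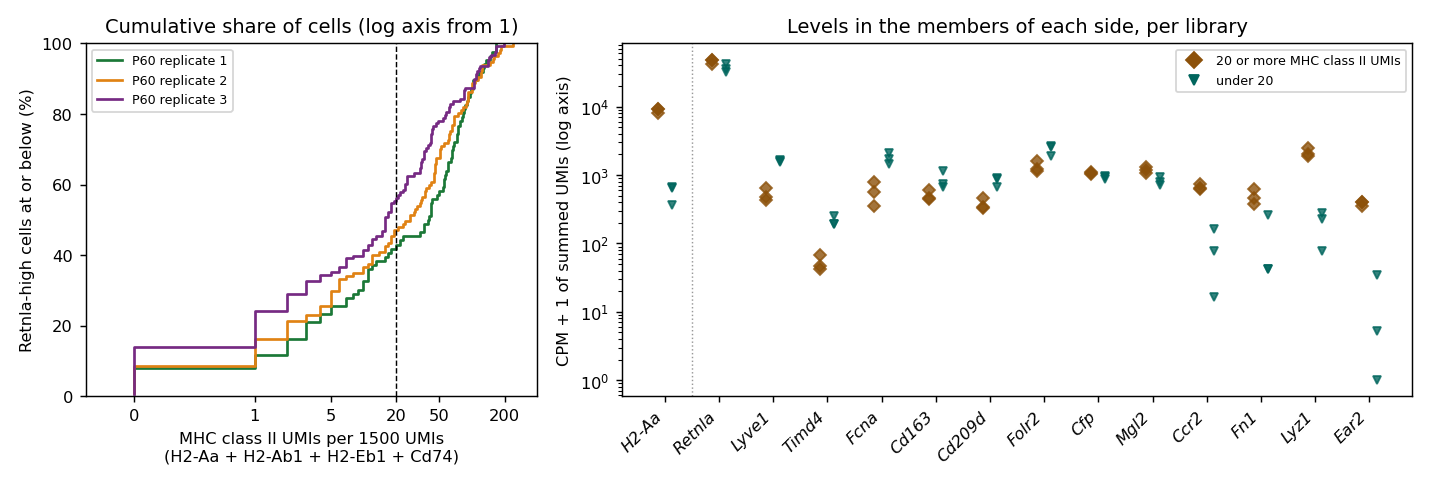
Left, the cumulative share in percent of Retnla-high cells by their MHC class II UMIs per 1500 UMIs, for each P60 library; right, levels in CPM plus 1 on a log axis in the Retnla-high cells with at least 20 and with fewer than 20 such UMIs, 1 point per library. Lyve1, Fcna and Timd4 are higher on the MHC class II-low side and Ear2, Ccr2 and Lyz1 on the MHC class II-high side.

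Since the groups differed in their mix of MHC class II-high and -low cells, the comparison with the Retnla-low cells was repeated within each side, as an alternative added after the data had been seen. Between the MHC class II-high cells of both groups 384 of 7184 genes were higher and 370 lower, and between the MHC class II-low cells, which were few (36, 55 and 71 against 16, 28 and 50), 78 of 5359 were higher and 101 lower. Fcna was higher on both sides (3.80 and 1.78) and Cx3cr1 lower (-2.58 and -6.92). Jun was also lower on both sides (-1.90 and -1.42). The perivascular list had 12 of 23 genes higher and 0 lower on the MHC class II-high side and 13 of 23 higher and 0 lower on the other. Of the named genes that could be tested between the MHC class II-low cells, 31 were called and 15 were not. Those not called were Fn1 (1.11, adjusted p = 0.258), Cd2 (1.70, adjusted p = 0.384), Cfb, Itgam, Irf8, Cd86, Fcgr1, Hspa1a, Trf, Slc11a1, Tfrc, Pdgfc, Gstp2, Mamdc2 and Serpinb1a, all in the direction given above. Between the MHC class II-high cells Mcm6, Slc11a1 and Top2a were not called.

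Few of the Retnla-high cells were cycling by their transcripts. After thinning to 1500 UMIs, 2 of 86, 3 of 117 and 2 of 128 held a UMI of Mki67 or Top2a, or 2.33%, 2.56% and 1.56%, against 2.46%, 3.01% and 5.61% of Retnla-low cells. Without thinning the shares were 3.49%, 2.56% and 3.10% against 7.38%, 3.76% and 6.42%. The share was lower in 3 of 3 libraries in this single random draw, by a mean difference of -1.54 percentage points. The difference did not pass an exact paired permutation test (two-sided p = 0.25, the smallest that 3 libraries can give). In replicate 2 the order turned at 1000 UMIs (2.56% against 1.5%), at 2500 UMIs (2.91% against 2.80%) and with the Retnla threshold in CPM (1.69% against 1.52%). Of 15 cell cycle genes tested 4 were lower and 0 higher, with a median of -0.98. Those 4 were Tyms, Mcm6, Top2a and Stmn1, all scarce, and Top2a stood at 4.51, 36.4 and 6.25 CPM against 46.6, 11.4 and 83.9 CPM, so its groups overlapped. Top2a was not called without replicate 3 (-0.46, adjusted p = 0.667) and changed by -3.57 without replicate 2, and Tyms was not called without replicate 3 (-1.41, adjusted p = 0.19) or replicate 1 (-1.94, adjusted p = 0.0516), nor Mcm6 without replicate 1 (-0.83, adjusted p = 0.444), which changed by -2.70 without replicate 2.

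Finally the Retnla-high cells were set against the macrophages of the P1 nerve, to ask how they differ from the cells present at birth. This comparison uses the same Retnla-high sums as the one above. Of 7432 genes tested 1531 were higher (20.6%) and 1434 lower (19.3%) in the Retnla-high cells, 39.9% in either direction (edgeR quasi-likelihood test without a block). Scaling by library size alone instead gave 1310 higher and 1738 lower, and moved the median over all genes from -0.004 to -0.11 on the log2 scale. The libraries of the groups did not overlap for 1588 genes higher (21.4%) and 2335 lower (31.4%). Ages were sequenced in separate libraries and the P1 sort left out part of the Schwann cells, so age and library preparation cannot be told apart.

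Retnla, Cd209d and Cd209g were not found at P1, whereas Clec10a and Mrc1 were present at lower levels. Retnla, Cd209d and Cd209g had 0 UMIs in all P1 sums, at least 82696-fold, 1143-fold and 954-fold lower than in the Retnla-high cells, with the floor set at 3 counts over the group. The rule asked for Retnla in the Retnla-high cells alone, so the size of its fold is set by the rule and is a description. Clec10a stood at 66.9, 111 and 102 CPM at P1, and Mrc1 at 457, 464 and 426 CPM, below every Retnla-high library.

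Genes not used by the rule showed the same kind of difference in places. Cd209b had 1 UMI over the 3 P1 sums and a ratio of 1582 (95% exact interval 282 to 62645), and Ear2 also had 1 (ratio 1326, 236 to 52535). Cd209f stood at 13.5, 0 and 9.13 CPM at P1 (log2 change 7.86 ± 0.45). Cd209a stood at 1.04, 0 and 0 CPM against 90.2, 113 and 104 CPM in the Retnla-high cells (7.98 ± 0.40). Lyz1 stood at 2.07, 4.12 and 4.81 CPM at P1 against 1249, 1266 and 1338 CPM (8.51 ± 0.21, adjusted p = 5.1e-11). Only 38.4%, 35.9% and 51.9% of the Retnla-high cells held a Lyz1 UMI, and in replicate 1 a single cell held 42.6% of them.

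Pla2g2d, a secreted phospholipase gene of lymphoid tissue macrophages, stood at 0, 0.516 and 0 CPM at P1 against 99.2, 93.0 and 106 CPM (8.62 ± 0.39). It was no mark of the Retnla-high cells among adult macrophages, since the Retnla-low cells held 144, 173 and 119 CPM. Myoc (8.09 ± 0.73), which the other P60 cells held at 581 CPM, stood at 29.3, 28.3 and 20.8 CPM in the Retnla-high cells and at 26.7, 27.4 and 13.2 CPM in the Retnla-low cells. Mucl1 had 0 UMIs at P1 as well.

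By list, 22 of 23 perivascular genes were higher than at P1 and 0 lower, with a median of 2.03 against -0.004 over all genes tested. MHC class II had 8 of 10 higher, with a median of 3.57, and H2-Aa stood at 54.4, 84.0 and 30.3 CPM at P1 (6.64). Complement genes had 9 of 12 higher and 1 lower. Folr2 changed by 2.71, Lyve1 by 1.45 and Cd163 by 3.46, while the platelet factor gene Pf4, which the Retnla-high cells held at 4981, 5009 and 4919 CPM and the P1 macrophages at 4632, 5040 and 4979 CPM, did not pass the test (0.13, adjusted p = 0.35).

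Cell cycle genes were all lower, 20 of 20 with a median of -2.85. Rad51ap1, Neil3 and Bub1b, genes of DNA repair and chromosome segregation, had 0 UMIs in the Retnla-high cells and were at least 13.6-fold, 11.1-fold and 9.85-fold lower than at P1, and Rrm2, a subunit of the enzyme that makes deoxynucleotides, changed by -6.29 ± 0.50 (-9.51 without P60 replicate 2). Rapsn, known for clustering acetylcholine receptors at the nerve-muscle synapse, had 0 UMIs in the Retnla-high cells and stood at 96.9, 94.4 and 69.2 CPM at P1, at least 40.8-fold lower. Ggta1, a sugar transferase gene, was at least 11.8-fold lower. Dlk1, an imprinted gene of growing tissue, had a single UMI in the Retnla-high cells and stood at 76.7, 92.3 and 106 CPM at P1, and Dusp2, a phosphatase gene, fell by 6.08 ± 0.35 on the log2 scale. In the Retnla-low cells Rad51ap1, Neil3, Bub1b and Rrm2 held only 7, 13, 9 and 7 UMIs. Rapsn, Ggta1 and Dlk1 held 8, 18 and 5 there. These genes, Dusp2 aside, were thus scarce in both groups of P60 macrophages.

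Microglia-like genes had 3 of 17 higher and 11 lower, with a median of -0.81. Trem2 stood at 720, 784 and 790 CPM at P1 (-2.70), above its level in the Retnla-low cells, and Tmem119 changed by -5.54. Hmox1, among the iron genes, stood at 3333, 3356 and 4393 CPM at P1 (-2.47). Tnf stood at 384, 339 and 341 CPM at P1 (-4.01). Immediate early genes had 7 of 22 higher and 4 lower, with a median of 0.09, and Jun did not pass the test (-0.47 ± 0.24, adjusted p = 0.14).

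The other lists had changes in both directions. Over all genes tested, 20.6% were higher and 19.3% lower, and a count near these shares says nothing particular about its list. Chemokines and their receptors had 5 of 19 higher and 9 lower, inflammatory genes 5 of 19 and 8, lysosome and lipid genes 5 of 28 and 12, iron-handling genes 4 of 12 and 6, and lectin and scavenger receptors 11 of 23 and 8. Transcription factors had 13 of 26 higher and 5 lower, growth factor and protease-related genes 7 of 14 and 4, identity genes 6 of 12 and 4, and genes of alternative activation 5 of 9 and 2. Fibroblast markers moved in part with this comparison, with Pi16 higher (5.42), Clec3b higher (3.91) and Col1a1 lower (-3.27), and their summed level was 1194, 1304 and 1716 CPM at P1. Their part in the results was not tested.

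**Figure D5:**
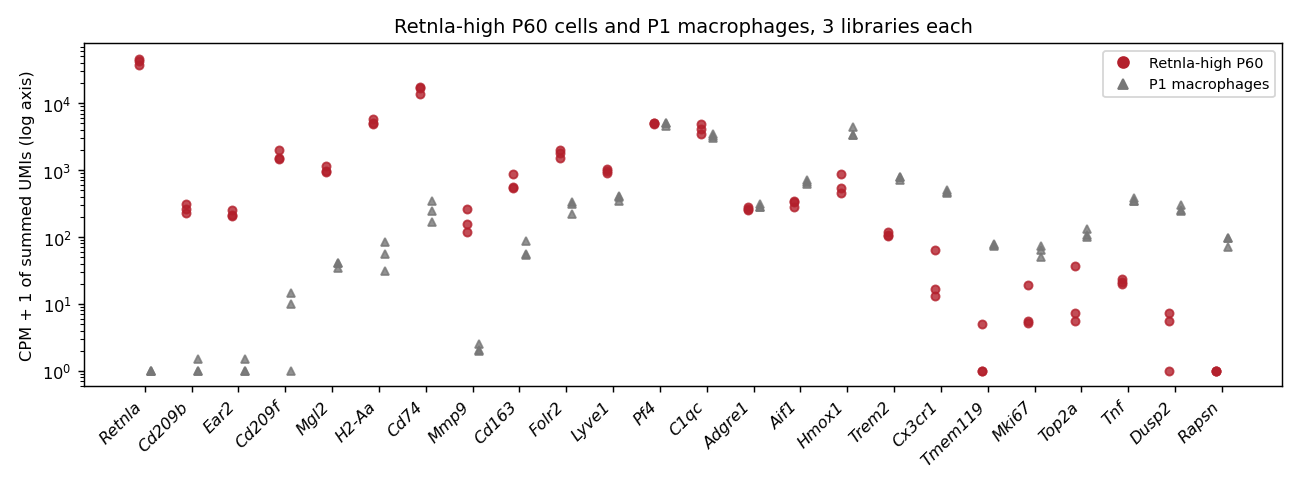
Levels of 24 genes in CPM plus 1 on a log axis in Retnla-high P60 cells and in P1 macrophages, 1 point per library (n = 3). Retnla, Cd209 genes and H2-Aa are higher at P60 in all libraries and Rapsn, Mki67 and Top2a are higher at P1.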

How the data were processed

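Single-cell libraries of mouse sciatic nerve (10x Chromium 3' v2) were analysed, 3 at P1 and 3 at P60. The deposited matrices hold UMI counts per gene and barcode, which the authors made with Cell Ranger 2.0.2. The submitters' processing notes name build GRCm38.p5, and 99.59% of the 41605 gene IDs were found in GENCODE M21. Total UMIs per library are given above and set the precision of each level.

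Barcodes with 500 to 5000 genes were kept, more at each age than the cell numbers that the methods state. No doublet caller was run, and doublets were limited only by the gene ceiling and by the conditions on Dcn, Sox10 and Pecam1. The members and gene lists were chosen with earlier results of these data known. CPM are UMIs per 1000000 UMIs of the summed cells. Sums per library and group were tested with edgeR 4.0.16 (R 4.3.3; TMM scaling, quasi-likelihood test, adjusted p below 0.05), with the library as a block at P60. Genes needed a mean CPM of at least 10 over the 6 sums and at least 20 UMIs. Genes that chose the cells, and the given markers, were not tested. In simulated counts for the Retnla-low comparison, 93% of genes changed by 2 on the log2 scale and 47% of those changed by 1 were recovered. Errors are SE of log2 changes unless stated.

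Named genes were the 15 largest called changes in each direction against Retnla-low cells at a set minimum level, and the 8 largest in each direction against P1. From each list, up to 3 called genes with the largest changes against Retnla-low cells in either direction were added. DESeq2 1.42.0, other scalings, filters, thresholds, thinning (seed 1) and leaving out each replicate were tried as alternatives. Promoter and motif sequences came from RefSeq, and 3 genes of the set of 12 had no entry. Some listed genes are not reported here.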

Additional observations from a re-analysis of the deposited data

How the results depend on the processing

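The 65 genes named from the comparison with Retnla-low cells kept their direction under each alternative in which they were tested, and 41 kept their call there. Not all were tested in each: the DESeq2 test gave an adjusted p for 43 and thinning for 49. The 16 named from the comparison with P1 kept both where tested, which was 13 of them after thinning or without P1 replicate 1. Against the Retnla-low cells, where 1086 genes were called, the DESeq2 Wald test called 325 (149 higher, 176 lower), cells thinned to 1500 UMIs gave 494 (239 and 255 of 5870), of which 463 were among the 1086, the MHC class II-low cells of both groups gave 179, and leaving out each replicate gave 753 to 826. Against P1, where 2965 were called, thinning gave 1512 (780 and 732 of 6887) and leaving out a replicate 2399 to 2766. With at least 50 Retnla UMIs the share of Retnla-high cells was 33.4%, and leaving out a replicate moved it from 37.7% to 42.1%. The cycling difference ranged from -2.24 to -0.288 points when a replicate was left out. It was -2.80 without thinning, -0.75 at 1000 and -2.58 at 2500 UMIs, and -2.56 and -3.31 with a Retnla threshold in CPM and with cells above 10% mitochondrial UMIs left out. Each thinned setting was a new random draw, so these shifts include the spread between draws. The mitochondrial filter removed no cell of either group in replicate 1. Even so, 7 of its 122 Retnla-low cells held a UMI of Mki67 or Top2a there, against 3 of 122 in the main draw.

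Without the replicate block 393 genes (185 higher, 208 lower) were called against the Retnla-low cells. Among named genes Bhlhe40, Il6, Mcm6, Osm, Slc11a1, Tfrc, Top2a and Tyms were then not called. Replicate numbers do not pair P1 with P60: deviations of same-numbered libraries correlated by 0.005, -0.027 and -0.061, and a replicate block there gave 2560 calls (1349 and 1211). The cause of these changes was not tested. Depth limits the scarce genes above all, since 1 UMI was worth 2.02 to 2.25 CPM in the Retnla-high sums, and the smallest p that 3 libraries can give bounds the cycling test. Counting per cell also reads RNA free in the suspension, which was not removed.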

Other observations

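Cells rich in Retnla were also found outside the macrophages described above. At P60, 59, 88 and 67 further cells of replicates 1, 2 and 3 (214 in all) held at least 20 Retnla UMIs but missed another condition, and they held 31.1%, 36.5% and 29.2% of the Retnla UMIs of their libraries. Of these, 128 (35, 49 and 44) missed only the condition on C1qa and C1qb. They were chosen by low C1q and high Retnla, so the level of both is a description, as are the other values given here.

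These C1q-poor cells held 32889, 31143 and 21696 CPM of Retnla, and C1qa stood at 39.7, 27.5 and 46.6 CPM. Ear2 stood at 938, 845 and 1009 CPM, Lyz1 at 4577, 4566 and 6103 CPM, and Fn1 at 1787, 1827 and 2238 CPM. Ccr2 stood at 784, 857 and 992 CPM. All 4 genes were above the levels of the C1q-positive Retnla-high cells in each library, MHC class II-high cells included. H2-Aa was abundant, at 6329, 6712 and 6413 CPM. Several genes named above as higher than in Retnla-low cells also exceeded their C1q-positive levels here. Cd2 stood at 134, 236 and 131 CPM, Ltb4r1 at 288, 365 and 191 CPM, and Cd24a at 328, 409 and 233 CPM. Ryr1 stood at 94.3, 114 and 97.5 CPM, Aldh1a2 at 104, 114 and 140 CPM, and H2-DMb2 at 263, 310 and 292 CPM. By contrast, Mucl1 and Cfb had 0 UMIs, Gstp2 was at most 12.7 CPM and Mamdc2 at most 35.4 CPM.

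Several genes of resident macrophages were low in the same cells. Lyve1 stood at 0, 7.86 and 55.1 CPM, Folr2 at 4.96, 0 and 55.1 CPM, Fcna at 4.96, 0 and 38.1 CPM and Cd209g at 4.96, 0 and 42.4 CPM. Not all were as low. Cd209d stood at 139, 196 and 136 CPM, below the C1q-positive Retnla-high cells but above the Retnla-low cells in each library. Gfra2 stood at 44.7, 51.1 and 80.5 CPM, not far below its C1q-positive level. Clec10a, at 84.4, 43.2 and 119 CPM, and Mrc1, at 184, 208 and 288 CPM, were below their levels in the C1q-positive cells, while Cd209a, at 164, 252 and 360 CPM, was above. Among monocyte markers Ccr2 and Itga4 (109, 110 and 165 CPM) were present, Ly6c2 and Chil3 had 0 UMIs, and Plac8, Vcan, F10 and Hp were at most 31.4 CPM. Among 9 dendritic cell markers Cd209a was present, Clec9a, Ccr7, Itgae and Siglech had 0 UMIs, and Flt3, Zbtb46, Xcr1 and Fscn1 were at most 11.8 CPM. Itgax, an integrin gene of several myeloid cells, stood at 44.7, 47.2 and 55.1 CPM against 4.51, 4.04 and 4.17 CPM in the C1q-positive Retnla-high cells.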
